A study of Mus musculus with 2 samples.

Results

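Lymphatic endothelial cells of the neonatal mouse lung were taken from a whole-lung single-cell experiment as the cells of the authors' cluster 11, the endothelial cluster, that held at least 2 UMIs (unique molecular identifiers, 1 for each captured transcript) of Prox1 and Mmrn1 summed. They were thus chosen by measured values, the counts of these 2 genes and the clustering itself. The rule gave 143 cells, of 2607 cells in cluster 11 and 22963 kept cells in all. Of these cells, 88 came from the IgG library and 55 from the 5E1 library. Both libraries came from Gli1CreERT2/+;R26RtdT/+ pups, in which tamoxifen lets the Cre recombinase made by Gli1-expressing cells switch on the tdTomato reporter. All pups were given tamoxifen on postnatal day 1. On day 3 they received either 5E1, an antibody that blocks Hedgehog ligands, or control IgG, and lungs were taken on day 6. The lungs of 3 pups were pooled for each condition, and each condition is 1 library, so nothing was tested between conditions. Intervals given are 95% intervals and cover counting error only.

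Lymphatic capillaries take up fluid, lipids and immune cells from tissue and return them to the blood, and in the lung they run beside airways and larger vessels. Prox1, a homeodomain transcription factor, sets and keeps lymphatic identity in endothelium that first forms from veins. Growth depends on VEGF-C and VEGF-D, which bind the receptor VEGFR3 (Flt4) with the co-receptor neuropilin 2 (Nrp2), and the chemokine CCL21 guides dendritic cells and T cells that carry the receptor CCR7 into the vessels.

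Ccl21a was the most abundant transcript of these cells, and the mouse genome carries near-identical copies of it, so its sequence is shown first. Ccl21a (ENSMUSG00000094686) lies on chr4:42772860-42773993 of GRCm38, minus strand. Its GENCODE M21 transcript has 870 bases with the coding part at 76 to 477, and bases 76 to 375 are given with capitals at the bases that differ in the copies.
Ccl21a, bases 76 to 375: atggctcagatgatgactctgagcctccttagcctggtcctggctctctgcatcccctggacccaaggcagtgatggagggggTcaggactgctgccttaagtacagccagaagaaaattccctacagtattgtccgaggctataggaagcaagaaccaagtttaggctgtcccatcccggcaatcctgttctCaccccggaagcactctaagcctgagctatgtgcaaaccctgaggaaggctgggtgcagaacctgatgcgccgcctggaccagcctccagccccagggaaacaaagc
The Ccl21b model differed from it at 2 bases, T159A and C269T, counted from the 5′ end of the Ccl21a transcript, with the base of Ccl21a first. The windows of 21 bases around both show the difference.
Ccl21a, bases 149 to 169: atggagggggTcaggactgct
Ccl21b, same bases: atggagggggAcaggactgct
Ccl21a, bases 259 to 279: atcctgttctCaccccggaag
Ccl21b, same bases: atcctgttctTaccccggaag
The coding sequences of Gm21541, Gm13304 and Gm10591 were identical to that of Ccl21b. Over the whole transcript, Gm21541 matched Ccl21a at 99.3% of 870 aligned bases, with 3 mismatches in the last 300, the end that 3′ counting reads. The lymphatic cells held 19219 UMIs (IgG) and 15654 UMIs (5E1) on Ccl21a. Gm21541 had 30 and 41 UMIs and Gm13304 had 10 and 13. The rows of Ccl21b and Gm10591 had 0, and a second row named Ccl21a, with another identifier, had 0 as well. How reads that fit several copies were assigned is not given in the sources used here, so the value of Ccl21a may hold tags of its copies.

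Among the 1293 IgG cells and 1314 5E1 cells of cluster 11, most had no UMI of either selecting gene. The IgG library had 1188 cells with 0 UMIs, 17 cells with 1 UMI and 8 cells with 2 UMIs. The 5E1 library had 1230, 29 and 8. The cells just outside the rule differed from those just inside it in Ccl21a, which the rule did not use. With 1 UMI of the selecting genes, 0 of 17 IgG cells and 2 of 29 5E1 cells had 5 or more Ccl21a UMIs. With 2 UMIs, 7 of 8 IgG cells and 5 of 8 5E1 cells did. Both genes were detected together in 74 of 88 and 47 of 55 lymphatic cells. Mmrn1 alone was detected in 14 and 7, and Prox1 alone in 0 and 1. Outside cluster 11, 13 IgG and 7 5E1 cells met the same threshold, of which 10 and 5 had 5 or more Ccl21a UMIs.

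**Figure D1:**
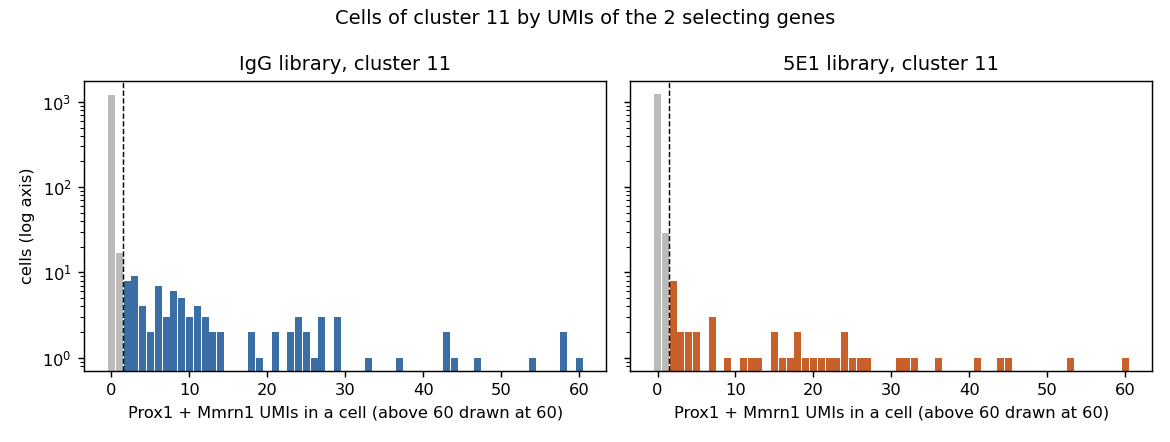
Cells of cluster 11 (vertical axis, log scale) by the number of Prox1 and Mmrn1 UMIs they hold (horizontal axis), in the IgG and 5E1 libraries. Coloured bars right of the dashed line are the 88 and 55 lymphatic cells, and grey bars are the 1205 and 1259 other cells.

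The lymphatic cells held 942037 UMIs (IgG) and 829379 UMIs (5E1), with medians of 7979 and 13181 UMIs per cell. The other cells of cluster 11 had medians of 4219 and 4591. Levels are given as CPM, the UMIs summed over a group of cells per 1000000 UMIs of that group. No doublet caller was run. Of the lymphatic barcodes, 2 IgG and 4 5E1 were set apart as mixed. They had no Ccl21a UMI, or 10 or more UMIs of Pf4 (platelet), Car4 (capillary) or Col1a2 (fibroblast). Ratios between the libraries were also computed without them. The shares and levels given below include them, except in the Lyve1 comparison. The pools differed in sex: Xist was detected in 85 of 88 IgG and 15 of 55 5E1 lymphatic cells, and a Y-linked transcript in 0 of 88 (an upper limit of 3.41%) and 32 of 55. Condition, library and sex of the pups therefore cannot be told apart in any difference between the libraries. The libraries shared 184 kept barcode sequences, of which 2 belonged to lymphatic cells.

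The lymphatic cells carried the secreted and surface markers of their type at levels far above the other endothelium. Of 20 such genes, 18 were at least 2-fold higher than in the other cells of cluster 11 in both libraries, where 8.61% of 5075 genes were. The authors' clustering used all genes, so this is a description of the cells and no test. Any such count that includes Prox1 or Mmrn1 also holds a gene that the rule itself made higher. Ccl21a stood at 20402 CPM (IgG) and 18874 CPM (5E1), 2.04% and 1.89% of all UMIs, against 21.9 and 22.6 CPM in the other cells. Per cell, Ccl21a ran from 0 to 814 UMIs with a median of 176 in the IgG library, and from 0 to 1196 with a median of 245 in the 5E1 library. After every cell was thinned to 1000 UMIs, 98.9% (IgG) and 96.4% (5E1) of the lymphatic cells had a Ccl21a UMI, against 1.96% and 1.51% of the other cells, a share that free RNA in the droplets can give. The cells with no Ccl21a UMI were 1 IgG cell of 43192 UMIs and 2 5E1 cells of 34508 and 10372 UMIs, all among the 6 barcodes set apart.

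Reln, a secreted glycoprotein best known for neuronal positioning, was almost confined to these cells within cluster 11, with 395 and 374 UMIs against 2 and 3 in the other cells, or 419 CPM (IgG) and 451 CPM (5E1) against 0.210 and 0.274. Prox1 (chr1:190118035-190170714, minus strand) had 412 and 446 CPM, and Mmrn1 (chr6:60924976-60989378, plus strand), a matrix glycoprotein also stored in platelets, had 1059 and 1320 CPM, as the selection requires. Nrp2 was at 1203 and 1044 CPM against 31.2 and 26.1. The sodium pump regulator Fxyd6 was at 775 and 951 CPM against 4.63 and 3.38, and the surface glycoprotein Thy1 at 481 and 528 against 3.58 and 2.92. Ptx3, a soluble pattern recognition protein, was at 600 and 387 CPM, against 0.842 and 0.913. Stab1 and Stab2, scavenger receptors, were at 632 and 58.4 CPM in the IgG cells and 731 and 82.0 CPM in the 5E1 cells. Each gene's values in the 2 libraries lay far above those of the neighbouring endothelium.

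Lyve1, the hyaluronan receptor used most often to stain lymphatic vessels, separated these cells poorly from the rest of cluster 11. Lyve1 (chr7:110850607-110863239, minus strand) had 845 CPM (IgG) and 913 CPM (5E1) in the lymphatic cells and 508 and 727 CPM in the other cells. At 1000 UMIs per cell, 37.5% and 49.1% of lymphatic cells had a Lyve1 UMI, against 34.3% and 45.8% of the others. Outside cluster 11 its highest level was 90.6 (IgG) and 83.8 CPM (5E1) in cluster 8, whose leading genes include the macrophage genes C1qa, C1qb and C1qc. Podoplanin (Pdpn), another common stain, was at 273 and 268 CPM in the lymphatic cells and 5.26 and 4.93 in their neighbours, but at 726 and 673 CPM in cluster 15, whose leading genes include the type 1 alveolar genes Ager and Aqp5. Of the markers that the rule did not count, Ccl21a and Reln were rare in the rest of cluster 11, and Lyve1 was not.

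**Figure D2:**
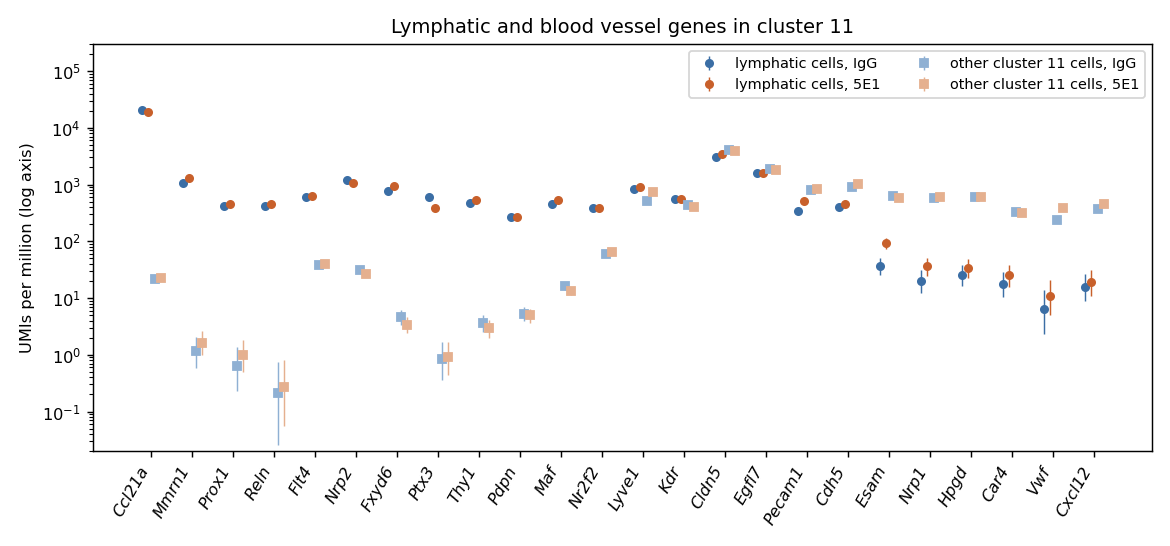
Levels in CPM (log axis) of lymphatic genes (left) and general or blood endothelial genes (right) in lymphatic cells (circles) and other cells of cluster 11 (squares) of each library, with exact Poisson intervals. Ccl21a stands at 20402 and 18874 in lymphatic cells and 21.9 and 22.6 in the others, the Lyve1 points lie close together, and Vwf, Car4 and Cxcl12 are low in lymphatic cells.

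The transcription factor list held 16 genes, of which 14 had at least 50 UMIs. At least 2-fold higher levels than in the other cells in both libraries were seen for 7 and lower levels for 1. Prox1 was counted by the rule, so its higher level is set by the selection. Maf was at 454 CPM (IgG) and 531 CPM (5E1) against 16.3 and 13.4. Nr2f2 (COUP-TFII), a venous and lymphatic factor that acts with Prox1, was at 383 and 392 against 59.2 and 64.8. Tbx1, required for lymphatic growth, was at 184 and 193 against 0.947 and 0.639. Sox18, which switches on Prox1 in the embryo, was at 96.6 and 96.5 CPM against 61.2 and 64.6 and did not pass 2-fold. Gata2, a factor of valve formation, had 24 and 31 UMIs and was lower here, at 25.5 and 37.4 CPM against 135 and 156.

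A run of neighbouring Hox genes, factors of body position, was detected almost only in these cells of cluster 11. Hoxd4, Hoxd8, Hoxd9 and Hoxd10 lie within chr2:74691924-74729160 of GRCm38. Hoxd8 had 43 UMIs (IgG) and 62 UMIs (5E1) in the lymphatic cells and 0 in the other cells of both libraries, at least 145-fold and 273-fold higher against the limit of 3 UMIs per library. Hoxd9 had 70 and 95 UMIs against 1 and 0, and was detected in 41 of 88 and 33 of 55 lymphatic cells. Hoxd4 had 45 and 73 UMIs against 0 and 1, and Hoxd10 had 13 and 12 against 1 and 0. The annotated Hoxd4 gene overlaps Hoxd3 on the same strand, and Hoxd3 had 1 and 2 UMIs. Hoxd1, Hoxd11, Hoxd12 and Hoxd13 had 0 UMIs in the lymphatic cells of both libraries. Over all 9 Hoxd genes the lymphatic cells had 172 and 244 UMIs and the far more numerous other cells 2 and 1. The HoxA cluster gave the opposite picture for Hoxa5, a gene of lung mesenchyme and endothelium, with 26.5 and 30.1 CPM in lymphatic cells against 201 and 201. Hoxa7 was at 64.8 and 72.3 CPM against 11.9 and 23.5. Hoxd4, Hoxd8 and Hoxd9 are among the leading genes below, and the other Hox genes were added after their values were seen.

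By the ratio to the other cells of cluster 11 in the lower of the libraries, with 0.5 UMI added to each sum, the 25 leading genes included Reln, Hoxd8, Ccl21a, Mmrn1, Hoxd4, Hoxd9, Prox1, Ptx3, Duox2, Cldn11, Apba2, Nts, Tbx1, Fxyd6, Slc45a3, Tub, Scn3a, Thy1, Dtx1, Pcsk6, Sema3d and Lrrn4cl. Some of them are best known from excitable or secretory cells. Scn3a, a subunit of voltage-gated sodium channels, was at 52.0 CPM in the IgG cells and 91.6 CPM in the 5E1 cells, against 0.316 and 0.365 in the other endothelium. Nts, the precursor of the peptide neurotensin, was at 230 and 382 CPM against 1.16 and 1.92, yet it was detected in only 31 of 88 and 29 of 55 lymphatic cells. Pcsk6, a proprotein convertase, was at 154 and 170 CPM, and Sema3d, a secreted guidance cue, at 81.7 and 83.2. When cells with no Prox1 or Mmrn1 UMI served as the comparison, 24 of the 25 genes were shared.

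Promoters are shown for the most abundant gene and for a selecting gene, as the windows with a motif match among those searched for Ccl21a, Mmrn1, Prox1 and Reln. Both are from RefSeq (GRCm38.p6), 250 bases before to 50 after the start, 5′ to 3′ on the strand of the gene. Capitals mark matches on either strand to letters that 4 factor families can bind. SOX factors were searched as AACAAT and ETS factors as AGGAAG, while nuclear receptors of the NR2F family were searched as AGGTCA and GATA factors as AGATAA. None of the motifs overlapped another in these windows.
Ccl21a, chr4:42773942-42774241, minus strand: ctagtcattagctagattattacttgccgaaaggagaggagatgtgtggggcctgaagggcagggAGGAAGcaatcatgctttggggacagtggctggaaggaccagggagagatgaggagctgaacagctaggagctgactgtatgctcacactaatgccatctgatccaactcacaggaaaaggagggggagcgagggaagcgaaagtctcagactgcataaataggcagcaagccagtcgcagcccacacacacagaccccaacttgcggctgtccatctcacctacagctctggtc
Mmrn1, chr6:60944067-60944366, plus strand: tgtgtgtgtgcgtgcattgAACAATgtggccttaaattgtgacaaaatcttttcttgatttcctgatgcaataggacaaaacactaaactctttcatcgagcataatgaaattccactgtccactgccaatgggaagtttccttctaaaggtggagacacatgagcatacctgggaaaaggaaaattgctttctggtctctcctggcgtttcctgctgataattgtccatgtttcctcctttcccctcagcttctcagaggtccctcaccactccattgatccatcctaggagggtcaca
The Ccl21a window held 1 ETS match and the Mmrn1 window 1 SOX match. Both Prox1 windows and the Reln window held 0 matches to the 4 motifs. The Mmrn1 window lies inside the GENCODE gene, downstream of its outermost start. Promoters were found for 19 of the 25 leading genes. A SOX match was present for 1 of them, an ETS match for 3, an NR2F match for 3 and a GATA match for 1. Over all 32851 promoters of this length, 10.7% held the SOX letters, 35.4% the ETS letters, 16.3% the NR2F letters and 11.2% the GATA letters. A match is a description of letters and not a binding site.

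Genes of blood vessels were low in the same cells. Genes were compared here where lymphatic cells had 50 UMIs or would have had them at the level of the other cells, and 8.95% of 5754 such genes were at least 2-fold lower in lymphatic cells of both libraries. Of the 15 blood capillary markers, 12 were lower by this measure, and of 10 measured arterial markers, 8. Vwf, the clotting protein of large vessels and veins, had 6 and 9 UMIs in the lymphatic cells, 6.37 CPM (IgG) and 10.9 CPM (5E1), against 240 and 391. The chemokine Cxcl12 had 15.9 and 19.3 CPM against 368 and 461. Hpgd, the prostaglandin-degrading enzyme of capillaries, had 25.5 and 33.8 against 609 and 611. Car4, a carbonic anhydrase of alveolar capillaries, had 17 and 21 UMIs, against 333 and 312 CPM in the others. A mixed IgG barcode held 13 of the 17, and a mixed 5E1 barcode 17 of the 21. Foxf1, a Hedgehog-responsive factor of lung mesenchyme and capillaries, had 26.5 and 51.8 CPM against 743 and 831. Cytl1 had 0 UMIs in the lymphatic cells of both libraries and 46.4 and 51.6 CPM in the others.

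Features common to all endothelium were kept, some at a lower level. Of 16 pan-endothelial genes, 0 were at least 2-fold higher and 6 lower in the lymphatic cells of both libraries. Claudin 5 (Cldn5), the main endothelial tight junction protein, was at 3036 CPM (IgG) and 3441 CPM (5E1) against 4030 and 3978. VE-cadherin (Cdh5) was at 397 and 458 against 896 and 1010, and Pecam1 at 348 and 521 against 791 and 850. Esam, an endothelial adhesion molecule, was at 36.1 and 91.6 CPM against 630 and 587. VEGFR2 (Kdr) was not lower, at 557 and 550 CPM against 434 and 400.

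Receptors of the VEGF-C pathway were high in lymphatic cells and its ligands scarce. Of 13 pathway genes, 5 had at least 50 UMIs. Of these 5, 3 were at least 2-fold higher than in the other endothelium of both libraries, against 8.61% of all genes. At least 2-fold lower levels were seen for 4 of 9 measured, against 8.95%. Flt4 was at 594 CPM (IgG) and 639 CPM (5E1), against 38.9 and 39.9 in the other cells, and was detected in 81 of 88 and 48 of 55 lymphatic cells. The neuropilins divided between the vessel types: Nrp2 was the high one in lymphatic cells, while Nrp1 had 20.2 and 36.2 CPM there and 582 and 593 in the others. VEGFR1 (Flt1), a decoy for VEGF-A, had 17 and 26 UMIs, with 294 and 316 CPM in the others. Itga9, an integrin needed for lymphatic valves, was at 169 and 170 against 15.9 and 16.6. Of the ligands and their helpers, Vegfc had 6 and 4 UMIs in lymphatic cells, Ccbe1 (a cofactor of VEGF-C processing) 0 in both, and the protease Adamts3 2 and 0.

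The ligands were found in other clusters. Vegfc was highest in the remaining cells of cluster 11, at 48.2 CPM (interval 43.9 to 52.8) in the IgG library and 57.4 CPM (53.0 to 62.1) in the 5E1 library. It was next highest in cluster 18, whose leading genes include the fibroblast genes Lum and Dcn, at 12.9 and 17.7 CPM. Figf, the annotated name for VEGF-D, was high in 4 clusters: 473 (IgG) and 323 CPM (5E1) in cluster 19, 536 and 314 in cluster 20, 514 and 291 in cluster 14, and 289 and 232 in cluster 18. In each of these 4 clusters the 5E1 value was the lower one, with intervals that did not overlap. With 1 library per condition this difference was not tested. Svep1, a matrix protein needed for lymphatic remodelling, was at 100.2 and 129 CPM in cluster 14, and 43.7 and 56.3 in cluster 19.

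**Figure D3:**
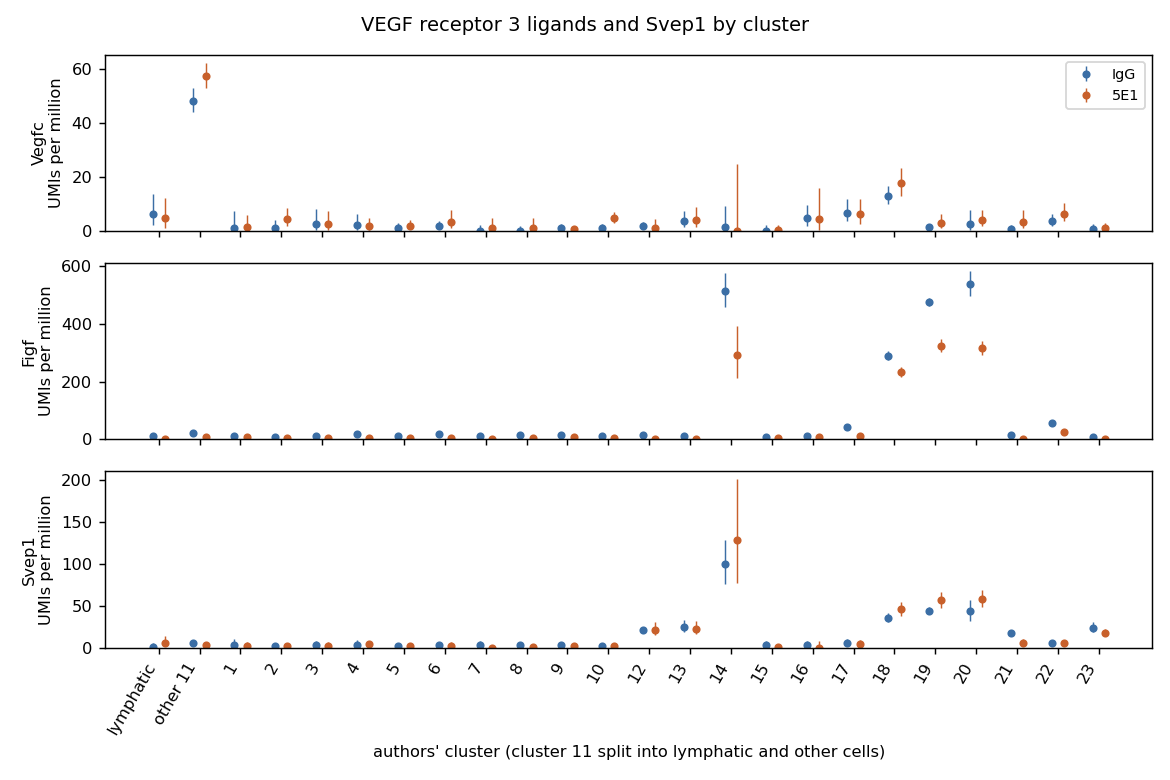
Levels in CPM of Vegfc, Figf (VEGF-D) and Svep1 in the authors' clusters, with cluster 11 split into lymphatic and other cells, by library, with exact Poisson intervals. Vegfc stands highest in the other cells of cluster 11 and Figf in clusters 14, 18, 19 and 20.

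Of 17 genes linked to lymphatic valves, 14 had at least 50 UMIs, and 8 were at least 2-fold above the other endothelium in both libraries. Gja1 (connexin 43) was at 309 (IgG) and 298 CPM (5E1) against 9.89 and 12.8. Gja4 (connexin 37) is shared with arteries and was at 261 and 222 against 323 and 326. Foxc2, the forkhead factor that collecting vessels and valves depend on, had 39 and 50 UMIs, in 23 of 88 and 19 of 55 cells. Cldn11, a claudin, had 97 and 80 UMIs, and 3 cells held most of them: 41 and 12 UMIs in cells of the IgG library and 53 in a cell of the 5E1 library. These 3 cells were deep, with 17586, 30618 and 37125 UMIs and carried 6, 6 and 11 Foxc2 UMIs. Their Ccl21a counts were 55, 592 and 267. They were chosen after their values were seen.

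Of 22 genes of leukocyte traffic, 11 had at least 50 UMIs. Of these 11, 4 were at least 2-fold higher than in the other endothelium of both libraries, against 8.61% of all genes. At least 2-fold lower levels were seen for 4 of 13 measured, against 8.95%. The partner chemokine Ccl19 had 0 UMIs in the lymphatic cells of both libraries. Il7, a survival cytokine for lymphocytes, had 41 and 24 UMIs, 43.5 (IgG) and 28.9 CPM (5E1) against 0.316 and 0.456. Spns2, which exports sphingosine 1-phosphate into lymph, was at 61.6 and 104 CPM, near the 56.6 and 64.5 of the other cells. Mrc1, the mannose receptor shared with macrophages, was at 170 and 127 against 2.84 and 3.19. The adhesion molecules Icam1 and Vcam1 had 27.6 and 9.55 CPM in IgG and 15.7 and 3.62 CPM in 5E1 cells.

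Matrix and signalling genes differed from the other endothelium in both directions, where the shares over all genes were 8.61% higher and 8.95% lower. Of 23 basement membrane and matrix genes with at least 50 UMIs, 8 were at least 2-fold higher in both libraries, and 6 of 26 measured were lower. Laminin alpha 4 (Lama4) was at 320 (IgG) and 282 CPM (5E1) against 28.2 and 32.6, while collagen IV (Col4a1) was at 332 and 422 against 594 and 612. Of the BMP and TGF-beta genes, 2 of 11 were higher and 8 of 15 lower. The BMP9 receptor Acvrl1 was at 62.6 and 74.8 CPM against 513 and 539, the BMP target Id1 at 80.7 and 92.8 against 467 and 456, and Smad6, an inhibitor of the pathway, at 6.37 and 15.7 against 193 and 256. TGF-beta receptor 2 (Tgfbr2) was on the higher side, at 332 and 367 against 69.6 and 62.1. In the adrenomedullin pathway, which lymphatic growth needs, the peptide Adm was at 32.9 and 69.9 CPM against 3.79 and 3.19, and its receptor Calcrl at 84.9 and 159 against 452 and 517.

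The share of lymphatic cells within the endothelial cluster was lower in the 5E1 library. They were 6.81% of cluster 11 in the IgG library (interval 5.49 to 8.32, exact Clopper-Pearson) and 4.19% in the 5E1 library (3.17 to 5.41), and the 5E1 share divided by the IgG share was 0.615 (0.431 to 0.871). Among all kept cells their share was 0.651% (0.523 to 0.802) and 0.582% (0.439 to 0.757), which gives 0.893 (0.626 to 1.26). With the rule's minimum of 2 UMIs the interval left out equal shares of cluster 11 but not equal shares of all cells. With a minimum of 1 UMI it left out neither: the shares of cluster 11 were 8.12% and 6.39%, a ratio of 0.787 (0.584 to 1.06), and those of all cells 0.777% and 0.889%, a ratio of 1.14 (0.848 to 1.54), of the opposite direction. Of the cells that this minimum adds, 0 of 17 IgG and 2 of 29 5E1 cells had 5 or more Ccl21a UMIs. With each cell at 1000 UMIs the rule found 3.80% and 2.41% of cluster 11.

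At the main setting, lymphatic identity genes were at similar levels in the libraries. The ratio of 5E1 over IgG was taken for 5075 genes with at least 50 UMIs in lymphatic cells, with 0.5 UMI added to each sum. It passed 2-fold for 115 of them (2.27%), 48 higher (0.946%) and 67 lower (1.32%) in the 5E1 library, and the median log2 ratio was 0.01. None of the 20 surface and secreted markers and none of the 14 measured transcription factors passed 2-fold. Their median log2 ratios were 0.17 and 0.17. Other settings gave other values. With a minimum of 1 UMI of the selecting genes, which adds cells mostly without Ccl21a, the medians were -0.17 and -0.09. Among cells with Xist and no Y-linked UMI, 11 in 5E1, 5 of the 20 markers were at least 2-fold lower and 0 of the 14 factors. With cells at 1000 UMIs, 1 marker and 2 factors were, with medians of 0.39 and -0.21. Ccl21a had a log2 ratio of -0.11, Flt4 0.10 and Reln 0.10. Prox1 was at 0.12, but the rule that chose the cells counted it in both libraries, so its level was partly set by the selection. The widest differences among the markers were Cp at 0.78, Fgl2 at 0.77 and Ptx3 at -0.63.

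Transcripts of dividing cells had the lowest median among the lists with at least 10 measured genes. Of the 20 G2 and M phase genes, 13 had at least 50 UMIs, all 13 were lower in the 5E1 library and 10 by 2-fold or more, with a median log2 ratio of -1.49. In the other cells of cluster 11 the same 13 genes had a median of -0.36 and 0 passed 2-fold, where 0.598% of genes were at least 2-fold lower. Ube2c, a ubiquitin-conjugating enzyme of mitotic exit, had 189 UMIs (201 CPM) in IgG and 25 UMIs (30.1 CPM) in 5E1 lymphatic cells, against 213 and 158 CPM in the others. Ccnb1, the mitotic cyclin, had 66.9 and 8.44 CPM, Cdk1, its kinase, 119 and 30.1, and Top2a, a topoisomerase of dividing cells, 161 and 72.3. The interval of the Ube2c ratio ran from 0.0948 to 0.229, and that of Top2a from 0.327 to 0.608.

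The difference rested on few cells. In the IgG library 10 cells held 1334 of 1888 UMIs of the list, and in the 5E1 library 10 cells held 519 of 615, of which 197 were in 1 cell. At 1000 UMIs per cell, 20 of 88 IgG cells (22.7%, interval 14.5 to 32.9) and 5 of 55 5E1 cells (9.09%, 3.02 to 19.95) had 2 or more UMIs of the list, intervals that overlap. Before thinning the counts were 51 of 88 and 31 of 55. Among the other cells of cluster 11 the thinned shares were 27.3% and 21.1%. The list's median was -1.49 without the 6 mixed barcodes, -1.06 without the deepest 10% of the cells and -2.26 among cells with Xist and no Y-linked UMI, of which the 5E1 library had 11. With cells at 1000 UMIs it was -0.91, with 6 of 13 genes at least 2-fold lower on 111 and 30 UMIs in all. With a minimum of 1 UMI of the selecting genes it was -0.95, and 4 of 13 genes passed 2-fold instead of 10, with 1914 and 1461 UMIs. The cells which that minimum adds are mostly without Ccl21a. S phase genes differed less: 4 of 10 were at least 2-fold lower, against 1.32% of all genes, with a median of -0.57. At 1000 UMIs per cell their median was 0.44, of the opposite sign.

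Interferon-response and antigen presentation genes were lower in the 5E1 library here as in the other endothelium. Of 12 measured, all 12 were lower and 6 by 2-fold or more, against 1.32% of all genes, with a median log2 ratio of -1.18. In the other cells of cluster 11 the median was -1.43 with 10 at least 2-fold lower, against 0.598% of genes. Gbp2, an interferon-induced GTPase, had 90 and 5 UMIs, 95.5 CPM (IgG) and 6.03 CPM (5E1). Iigp1, another, had 103 and 19.3 CPM, and the immunoproteasome subunit Psmb9 89.2 and 14.5. The class I heavy chain H2-K1 was at 326 and 118 CPM, and beta 2-microglobulin (B2m) at 1210 and 617. The class II genes H2-Ab1, H2-Aa and Cd74 were also lower, but these and Ifi27l2a stood under 5% of their level in the cluster where each is highest, a range that free RNA reaches. Without those 4, 3 of 8 list members were at least 2-fold lower, with a median of -0.92. Gbp2, Iigp1 and Psmb9 are among the 12 lowest ratios given below, and not every gene named here is among the 12 measured list members.

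**Figure D4:**
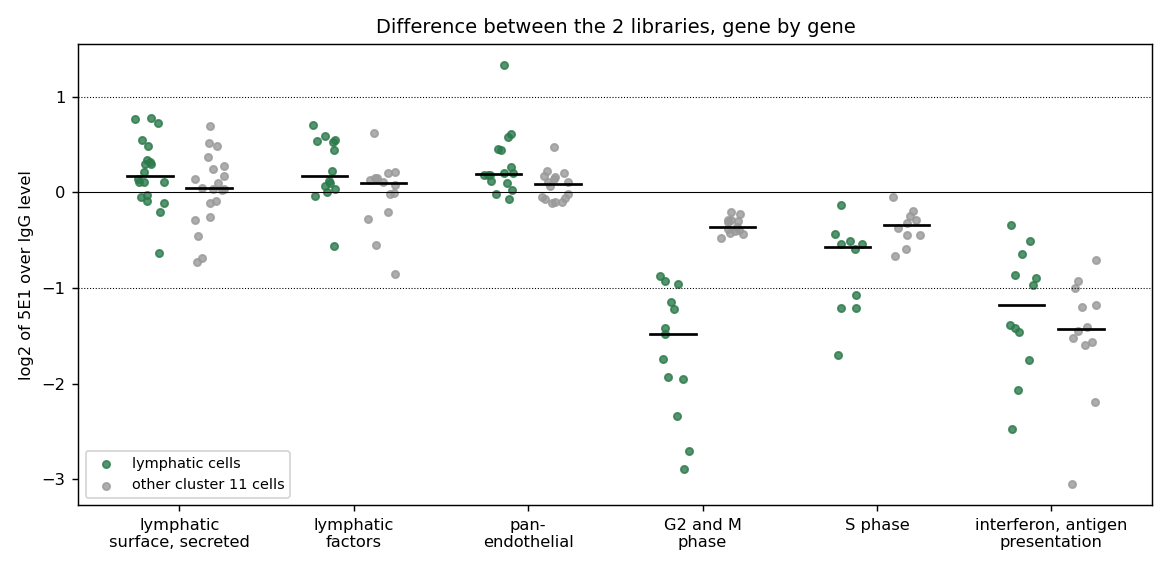
Each point is a gene with at least 50 UMIs in lymphatic cells, placed by its log2 ratio of 5E1 over IgG in lymphatic cells (green) and in the other cells of cluster 11 (grey). Black bars are list medians and dotted lines mark 2-fold. G2 and M phase genes have a median of -1.49 in lymphatic cells and -0.36 in the others, and lymphatic markers lie near 0 in both.

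The 12 lowest ratios were those of Gbp2, Ccnb1, Ube2c, Psmb9, Iigp1, Ccnb2, Xist, Tuba1c, Lockd, Cdk1, Cenpf and Fam64a, most of them from the cell cycle or the interferon response. Xist, which marks the inactive X chromosome, was at 1882 and 387 CPM, in pools of pups that differed in sex. The 12 highest were Pf4, Clk3, Tspan7, Hist1h1c, Rgs10, Plat, Ccdc141, Esam, Arhgap17, Sft2d2, Btbd3 and Cthrc1. Pf4, a platelet chemokine, had 13 and 218 UMIs, of which 210 were in 1 5E1 barcode that also held 43 Ppbp UMIs, and without the mixed barcodes its log2 ratio was -0.50. Rgs10 turned as well, to -0.37. Tspan7 had 23 and 60 UMIs, and Esam had 34 and 76 UMIs, 36.1 and 91.6 CPM. In the other cells of cluster 11, Tspan7 was at 659 (IgG) and 749 CPM (5E1) and Esam at 630 and 587. The part of the mixed barcodes in the Tspan7 and Esam ratios was not tested. Plat, the tissue plasminogen activator, had 21.2 and 56.7 CPM.

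Further list members named here passed 2-fold. Angpt2, the TIE2 ligand that lymphatic maturation requires, had 47 and 93 UMIs, 49.9 CPM (IgG) and 112 CPM (5E1), a ratio interval of 1.57 to 3.26. Adm had 31 and 58 UMIs, a ratio interval of 1.35 to 3.401, and without the deepest 10% of the cells its log2 ratio was -0.06. Nrarp, a feedback target of Notch signalling, had 50 and 18 UMIs, 53.1 and 21.7 CPM, while Notch1 was at 141 and 206. Ackr2, a receptor that scavenges inflammatory chemokines, had 50 and 19 UMIs, 53.1 and 22.9 CPM. Depth per cell was higher in the 5E1 cells, and its part in these values was not tested.

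Hedgehog pathway transcripts were scarce in lymphatic cells of both libraries. Ptch1, the receptor and a direct target, had 26 UMIs (27.6 CPM) in IgG and 21 UMIs (25.3 CPM) in 5E1 cells, a ratio interval of 0.491 to 1.70. At 1000 UMIs per cell a Ptch1 UMI was found in 6 of 88 and 4 of 55 lymphatic cells and in 0.980% and 1.59% of the other cells. Smo, the signal transducer, had 34.0 and 51.8 CPM. Gli1 had 0 UMIs in both, which allows up to 3.18 and 3.62 CPM. Hhip, an inhibitor and target, had 9 and 1 UMIs, in both libraries under 5% of its level in the cluster where it is highest. A change in Hedgehog response was not detectable in these cells at this depth. The tdTomato row had 0 UMIs in all of cluster 11.

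The lymphatic cells were not uniform, and Lyve1 varied widely among them. Among cells with at least 4000 UMIs and outside the mixed barcodes, 63 in IgG and 36 in 5E1, Lyve1 ranged from 0 to 38.1 and from 0 to 31.9 UMIs per 10000, with medians of 6.01 and 6.68. No Lyve1 UMI was found in 10 and 4 of them, the deepest with 17586 and 37451 UMIs. Cells were called low below 2 and high from 6 UMIs per 10000, limits set after the values were seen: 20 low and 32 high in IgG, 7 low and 19 high in 5E1, with 11 and 10 between. These classes are ranges of 1 gene and not cell types, and 12 and 4 cells lay between 1 and 3, near the lower limit. Their depth had medians of 9943 (low) and 10956 (high) UMIs in IgG and 19250 and 15174 in 5E1.

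Ccl21a was abundant in Lyve1-high and Lyve1-low cells alike. It was at 20648 CPM in high and 20276 CPM in low cells of the IgG library, and at 19290 and 24230 in the 5E1 library. Other genes went with Lyve1 in both libraries: of 3812 compared, 53 (1.39%) were at least 2-fold higher and 28 (0.735%) at least 2-fold lower in high cells of both. Fgl2, a secreted fibrinogen-like protein, was at 627 CPM in high and 107 CPM in low cells of IgG, and at 1025 and 55.7 in 5E1. Stmn2, a microtubule regulator of neurons, was at 139 and 18.7, then 301 and 6.96. Prelp, a matrix proteoglycan, was at 141 and 18.7, then 166 and 6.96. The low cells held 4 and 1 UMIs of Stmn2, and likewise of Prelp, so their ratios are imprecise: the interval for Stmn2 ran from 2.76 to 28.1 in IgG and from 7.61 to 1723 in 5E1.

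A second set of genes was higher in the Lyve1-low cells. Npnt, the matrix protein nephronectin, was at 355 CPM in low and 41.2 CPM in high cells of IgG, and at 425 and 55.5 in 5E1. It was found in 17 of 20 and 7 of 7 low cells, and also in 11 of 32 and 11 of 19 high cells. Osr1, a zinc finger factor, was at 271 and 34.7, then 251 and 50.2. AA467197 was at 290 and 19.5, then 467 and 18.5, in 8 of 20 and 5 of 7 low cells. Sparc, a secreted matrix protein, was at 2168 and 874, then 2298 and 721, and Mrc1 at 318 and 106, then 286 and 100.4. Npnt and Osr1 are also fibroblast transcripts and Mrc1 a macrophage one. The 15 macrophage markers summed to 612 CPM in low and 301 CPM in high cells of IgG, and to 501 and 206 in 5E1. Mrc1 and Fcer1g made this difference, Fcer1g being at 140 and 39.0, then 125 and 10.6. Its UMIs lay in few cells: 3 of 20 low and 11 of 32 high cells of IgG, and 4 of 7 and 3 of 19 of 5E1. Fcer1g was also in the range that free RNA reaches. The remaining 13 summed to 154 and 156, then 90.5 and 95.1. The 10 fibroblast markers summed to 808 and 759, then 313 and 750.4, and 0 and 3 of the 10 were at 0 UMIs in the low cells of IgG and 5E1. The G2 and M phase genes summed to 1234 CPM in low and 2221 CPM in high cells of IgG but to 1539 and 240 in 5E1, where 197 of the 221 UMIs of the 7 low cells were in 1 cell. The part of these in the Lyve1 differences was not tested.

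In the IgG library alone, 7.74% of the 3812 genes passed 2-fold between high and low cells, and in the 5E1 library alone 15.3%. Leaving out Lyve1 and the classes named in the processing, of 135 genes that were 2-fold higher in Lyve1-high cells of the IgG library, 96 lay in the same direction in the 5E1 library and 51 past 2-fold. Of 152 that were lower, 100 lay in the same direction and 28 past 2-fold. The 15.3% counts both directions together. The share of all 3812 genes in each direction in 5E1 is not given here, so these counts are a description only. Nts was at 273 and 238 CPM in high and low cells of IgG and at 600 and 13.9 in 5E1, where the low cells were 7. In IgG the low cells held 51 Nts UMIs in 4 of 20 cells, and 44 of these UMIs were in 1 cell.

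**Figure D5:**
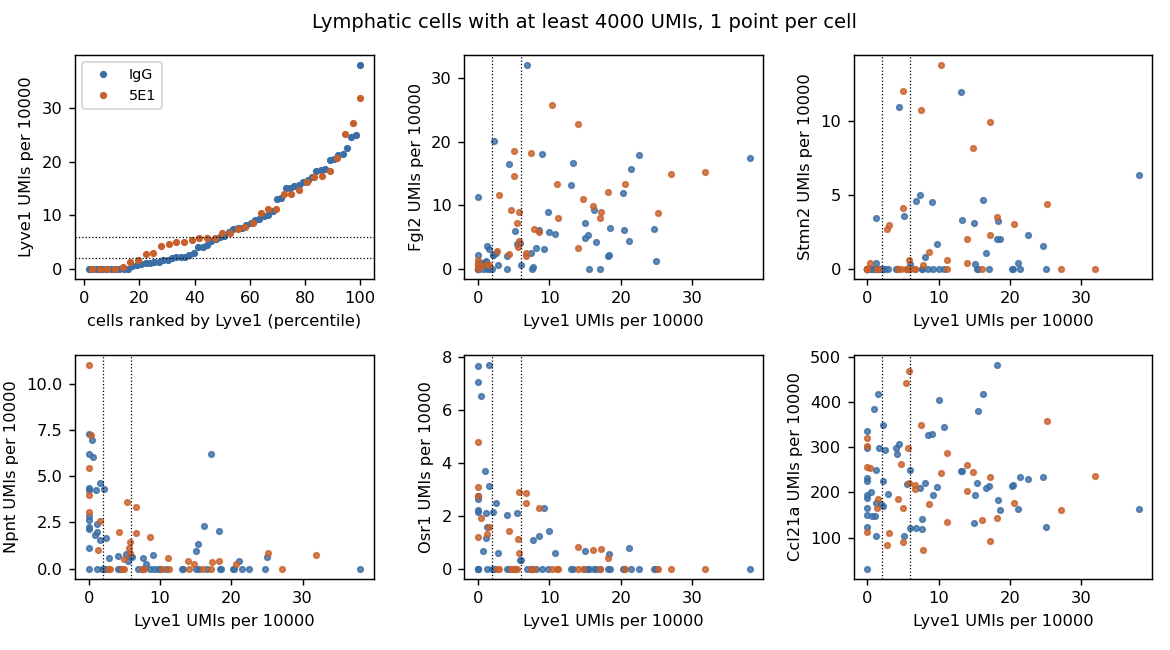
Lymphatic cells with at least 4000 UMIs, 1 point per cell, coloured by library. The first panel ranks cells by Lyve1, and the others plot Fgl2, Stmn2, Npnt, Osr1 and Ccl21a against Lyve1, all in UMIs per 10000, with dotted lines at 2 and 6. Npnt and Osr1 are highest at low Lyve1, Fgl2 at higher Lyve1, and Ccl21a is spread alike.

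Markers of other cell types were low but not zero. The 14 epithelial markers summed to 2434 (IgG) and 1565 CPM (5E1) in lymphatic cells, less than the 4591 and 2470 of the other endothelium, led by Scgb1a1 and Sftpc, while Foxj1 had 0 and 1 UMIs. The 10 fibroblast markers summed to 1034 and 807 CPM and the 15 macrophage markers to 394 and 254, of which Mrc1 made 170 and 127. The macrophage genes Csf1r and Adgre1 had 2 UMIs each in IgG and 0 in 5E1. Platelet markers summed to 21.2 and 451 CPM, with 364 of 374 5E1 UMIs in 1 barcode. The sums of epithelial, fibroblast and macrophage markers were lower in the 5E1 library, in the same direction as the cell cycle and interferon lists, and their part in those was not tested.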

How the data were processed

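Whole-lung cells were captured with a droplet 3′ assay, and reads were processed with Cell Ranger 3.1.1 on mm10, per the submitters' processing notes. The deposited matrices hold raw UMI counts per gene and barcode, and the authors' deposited cell table gives each kept cell a cluster number and a library. In that table the column names are shifted: cluster numbers stand under the name conditions. Members and gene lists were chosen with earlier results of these data known. UMIs were summed over the cells of a group in each library and divided by the group's total (CPM). Intervals are exact Poisson for levels, exact binomial for shares and conditional binomial for ratios, at 95%. Ratios carry 0.5 UMI per sum, and genes need 50 UMIs over both libraries. Named genes are list members with at least 20 UMIs, or at 0 where absence is described, the 25 leading genes, and the 12 highest and 12 lowest ratios. These last leave out mitochondrial, ribosomal, haemoglobin, immunoglobulin, predicted and Y-linked genes and those in the range of free RNA. Genes low in lymphatic cells and genes that go with Lyve1 were ranked after seeing the data, and list members with 1 to 19 UMIs (such as Vegfc, Adamts3, Vcam1, Smad6 and Hhip) were named after their values were seen. Repeated symbols were kept apart by identifier. Python 3.11.15, numpy 2.4.6, scipy 1.17.1 and pandas 2.3.3 were used, and the ratio, interval and thinning steps were tested on simulated data. Some leading genes are not reported here.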

Additional observations from a re-analysis of the deposited data

Results flagged for a closer look

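Esam had a log2 ratio of 5E1 over IgG of 1.33 in lymphatic cells and of -0.10 in the other cells of cluster 11, with counting intervals on opposite sides of equal levels. The difference between these ratios was not tested, with 1 library per condition. The lymphatic sums include mixed barcodes with no Ccl21a UMI, 1 IgG barcode of 43192 UMIs and 2 5E1 barcodes of 34508 and 10372 UMIs. Each of these barcodes also held 0 UMIs of Reln and of Pdpn. In the other cells of cluster 11, Esam was at 630 (IgG) and 587 CPM (5E1), against 36.1 and 91.6 in the lymphatic sums. The Esam ratio without these barcodes is not given here, and their part in it was not tested.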

How the results depend on the processing

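No paired analysis was possible because each condition is 1 library and the labels carry no replicate numbers. The lymphatic share of cluster 11 was 5.49% (IgG) and 3.42% (5E1) with at least 4 UMIs of the selecting genes, a ratio of 0.624 (0.419 to 0.919), and 8.12% and 6.39% with at least 1, where the interval of the ratio reached 1.06. It was 3.80% (IgG) and 2.41% (5E1) with cells thinned to 1000 UMIs. The share of all cells was 0.777% (IgG) and 0.889% (5E1) with at least 1 UMI, so that the direction between libraries turned. Of the cells added by that minimum, 0 of 17 IgG and 2 of 29 5E1 cells had 5 or more Ccl21a UMIs. The number of genes past 2-fold between libraries, 115, became 459 with a minimum of 20 UMIs, 41 with a minimum of 100, 5 after thinning, 193 with at least 1 UMI of the selecting genes and 294 among cells with Xist and no Y-linked UMI. Of the 115, 88 were shared with the 119 found without the mixed barcodes, an alternative chosen after seeing the data. The direction turned for Fam64a (0.68) and Plat (-0.54) after thinning, for Pf4 (-0.50) and Rgs10 (-0.37) without the mixed barcodes, and for Ccdc141 (-0.24) and Adm (-0.061) without the deepest 10% of cells. The cause was not tested. At 55 cells in the 5E1 library, a gene with fewer than 20 UMIs allows no statement on its ratio.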
